A study of Homo sapiens with 12 samples.

Results

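The regions described here were open in KO-52 cells that expressed the p42 isoform of CEBPA and were kept in DMSO, as far as the peak lists show, and in no other condition of the study. The peaks of 6 lists, one per condition, on chromosomes 1 to 22 and X were merged wherever they overlapped by at least 1 bp, which gave 355051 common regions. A region was chosen by the presence of a peak in the p42 DMSO list and the absence of a peak in the other 5 lists. This left 47299 regions, 13.3% of all common regions and 19.2% of the 245929 regions with a peak in the p42 DMSO list. They are called p42 DMSO-alone regions below, and each of them consists of a single p42 DMSO peak.

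KO-52 is an acute myeloid leukemia cell line with biallelic CEBPA mutations, and all groups keep these mutated alleles. They were transduced to express p42 or p30, or with an empty vector (EV) as control, and received DMSO or tunicamycin (Tm, 2 µg/mL for 8 h). In the study's methods, KO-52 lines for long-term expression carried the isoform as a fusion to ERT2, a receptor domain that holds the protein outside the nucleus until 4-hydroxytamoxifen is added, were sorted for GFP, and were given 4-hydroxytamoxifen together with the EV cells. ATAC-seq was done on nuclei of 50000 cells per library, with 2 libraries in each of the 6 conditions, and the authors called the lists used here on the pooled pair of libraries, so no count below has a replicate spread and no difference between lists was tested. Depth, estimated from the background level of the peaks, ranged from 22250000 tags in EV DMSO to 29980000 tags in p42 DMSO, and the p42 DMSO list was also the longest. The promoters of 6 of 6 myeloid and progenitor markers (SPI1, MPO, CD33, KIT, CD34 and LYZ) had a region with a peak in all 6 lists, against 4 of 7 markers of other cell types.

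C/EBPα is a basic leucine zipper (bZIP) transcription factor that drives granulocyte and monocyte differentiation. The full-length protein, p42, and the shorter p30, which starts at an internal codon and lacks transactivation sequence at the N-terminus, share the same DNA-binding domain. C/EBP dimers bind a palindrome made of TTGC half-sites. C/EBP proteins can also pair with AP-1 proteins (the FOS and JUN families) or with ATF4, and these mixed dimers bind composite words that join a C/EBP half-site to the half-site of the partner. Tunicamycin blocks N-linked glycosylation of proteins in the endoplasmic reticulum and starts the unfolded protein response, in which translation of ATF4 rises. In ATAC-seq the Tn5 transposase cuts accessible DNA, so fragments pile up where chromatin is open.

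The DNA under 5 of the p42 DMSO-alone regions is printed first, because the words in capitals are the ones counted in the rest of the text. The first 4 are, of the p42 DMSO-alone regions reported here, those with the highest −log10 q and a CEBP, CEBP:AP1, ATF4 or AP-1 word within 100 bp of the summit, and the fifth covers a start of IL12B. Each stretch is 151 bp of hg38, centred on the summit and read from the plus strand, and is named after the protein-coding gene with the nearest start.
DPT, CEBP word, chr1:168698737-168698887: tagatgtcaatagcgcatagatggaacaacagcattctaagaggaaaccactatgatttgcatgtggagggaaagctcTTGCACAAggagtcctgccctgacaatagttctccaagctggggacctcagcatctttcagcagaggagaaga
RYBP, CEBP:AP1 word, chr3:72409076-72409226: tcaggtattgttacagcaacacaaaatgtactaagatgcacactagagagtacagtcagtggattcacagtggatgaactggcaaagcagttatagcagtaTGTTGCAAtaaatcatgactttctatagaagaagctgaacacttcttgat
SRL, ATF4 word, chr16:4179188-4179338: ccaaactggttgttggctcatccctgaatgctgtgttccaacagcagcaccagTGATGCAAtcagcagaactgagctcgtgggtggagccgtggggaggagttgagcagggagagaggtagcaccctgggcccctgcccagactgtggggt
CCL28, AP-1 word, chr5:43368378-43368528: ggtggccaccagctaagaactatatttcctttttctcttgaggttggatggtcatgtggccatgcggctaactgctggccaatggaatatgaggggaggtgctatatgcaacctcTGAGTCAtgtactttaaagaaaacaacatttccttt
IL12B, CEBP:AP1 word on both strands, chr5:159330443-159330593: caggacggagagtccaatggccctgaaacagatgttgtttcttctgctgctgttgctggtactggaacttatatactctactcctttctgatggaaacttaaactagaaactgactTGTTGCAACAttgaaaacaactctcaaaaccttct

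The searched words were TTGCGCAA and TTGCACAA for CEBP, TGTTGCAA for the CEBP:AP1 composite, TGATGCAA for the ATF4 composite of a C/EBP and an ATF half-site, TTACGTAA and TTATGTAA for PAR bZIP factors and NFIL3, and TGAGTCA for AP-1, each on both strands and without mismatch. These words overlap in their half-sites and were counted separately. A word is a string of letters near a summit, and no binding was measured here.

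The DPT region lay in an intron of DPT, which encodes the extracellular matrix protein dermatopontin, 30394 bp from the nearest start of a protein-coding gene. It had 15 tags at the summit against a background of 0.63, a fold enrichment of 9.8 and a −log10 q of 14.1. Its CEBP word was 6 bp from the summit, and the nearest peak of any other list was 10076 bp away. The RYBP region, in an intron of the Polycomb subunit gene RYBP, had 17 tags and a −log10 q of 14.5, and its CEBP:AP1 word lay 29 bp from the summit. A p42 Tm peak was 291 bp from the RYBP region. The SRL region, outside genes, had 18 tags over a background of 1.7 and a −log10 q of 10.9, with the ATF4 word 18 bp from the summit. The CCL28 region, also outside genes, had 14 tags and a −log10 q of 12.7, with the AP-1 word 43 bp from the summit. These 4 regions stood far above the typical p42 DMSO-alone region, which had a −log10 q of 3.25.

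Of the 5 p42 DMSO-alone regions with the highest −log10 q, 4 are reported here and lay nearest to CCDC3, H3-5, CSTF3 and FILIP1L. The strongest region, in an intron of CAMK1D on chromosome 10 from 12824693 to 12824801, had 17 tags over a background of 0.63, a fold enrichment of 11 and a −log10 q of 16.8. None of the 14 motifs searched was within 100 bp of its summit. Its sequence is given as an example of a strong region that holds none of the words.
CCDC3, no word, chr10:12824673-12824823: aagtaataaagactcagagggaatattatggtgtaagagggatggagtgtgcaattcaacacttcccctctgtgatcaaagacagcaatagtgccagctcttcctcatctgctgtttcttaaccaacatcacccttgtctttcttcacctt

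Most p42 DMSO-alone regions were weak. The number of tags at the summit ranged from 4 to 38, with quartiles of 5, 6 and 7. The fold enrichment had a median of 4.29 and the −log10 q ran from 1.3, the threshold of the list, to 16.8 with a median of 3.25. Of the 47299 regions, 28137 had a −log10 q of at least 3, 6291 of at least 5 and 193 (0.408%) of at least 10. The median width was 77 bp, and 13960 (29.5%) were 57 bp wide, the narrowest peak of the list, taken here as the length of 1 fragment. Regions with a peak in all 6 lists had a median of 19 tags in the p42 DMSO list, and regions with a peak in both p42 lists alone had 8.

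The rule turned on a peak edge for some regions. There were 409 p42 DMSO-alone regions within 10 bp of a peak of another list, 41 of them touching it, with a median of 6 tags and a −log10 q of 3.13. Just outside the rule were 672 p42 DMSO peaks that overlapped another list by 1 to 10 bp, with a median of 6 tags and a −log10 q of 3.09. The median gap to the nearest peak of any other list was 2531 bp, and 9745 regions (20.6%) had such a peak within 500 bp. Among single lists the median gap was smallest to p42 Tm (4443 bp) and largest to p30 Tm (5478 bp). The lists also differed in length, with 221501 peaks in p42 Tm and 187958 in p30 Tm, and gaps were not adjusted for this.

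The p42 DMSO list had more regions of its own than any other list, and depth moved in the same direction. Regions with a peak in 1 list alone numbered 17597 in p42 Tm, 19386 in p30 DMSO, 11316 in p30 Tm, 11834 in EV DMSO and 14225 in EV Tm, or 6.45 to 9.74% of the regions of those lists against 19.2% in p42 DMSO. To set depth beside this, tags and background of every peak were scaled down to the depth of EV DMSO, the shallowest list, and a peak was kept if it still passed the lowest −log10 p of that list. The p42 DMSO list then had 42535 regions of its own (17.9%) and the other lists 11624 to 17914 (6.64 to 8.93%). Of these 42535 regions, 41979 were among the 47299, which is 88.8% of the 47299 and 98.7% of the 42535. The scaling multiplied tags and background by the ratio of depths and left out the loss of tags by sampling. Of the 47299 regions, 4855 failed at the scale of p30 DMSO (0.88) and 5321 at that of EV DMSO (0.74), while 4536 had 4 tags. The number that failed thus changed little with the scale, and this setting cannot show what a shallower library would have missed.

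Equal list lengths changed the count more. When every list was cut to one length by −log10 q, 19790 p42 DMSO regions were alone (10.9%), against 12916 in p42 Tm, 12950 in EV Tm, 14760 in p30 Tm, 15630 in p30 DMSO and 15846 in EV DMSO (7.49 to 8.85%). The p42 DMSO list still had the highest number. Of the 19790 regions, 16161 were among the 47299, or 34.2% of the latter and 81.7% of the former. What part depth, library quality and p42 each have in these counts was not tested, and with pooled lists a difference between conditions and a difference between libraries cannot be told apart.

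**Figure D1:**
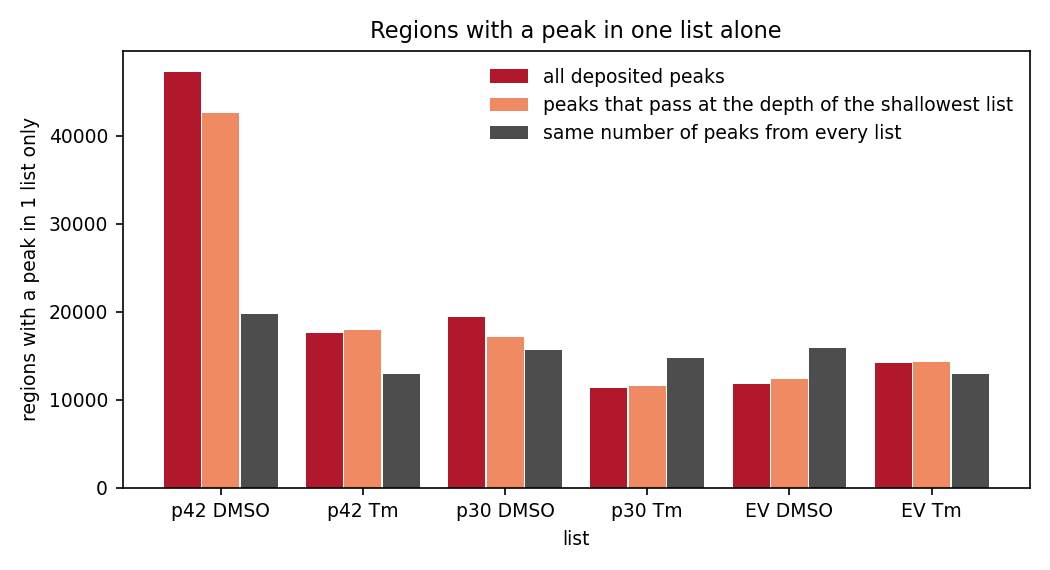
Bars give the number of regions with a peak in 1 list alone (vertical axis) for each of the 6 lists, with all deposited peaks, with peaks that pass at the depth of the shallowest list, and with the same number of peaks from every list. The p42 DMSO bars are 47299, 42535 and 19790, each the highest of its kind.

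C/EBP-type words were found near the summits of p42 DMSO-alone regions more often than in the regions alone to p30 or EV lists. The CEBP word was within 100 bp of the summit in 1373 p42 DMSO-alone regions, or 2.90% (95% Wilson interval 2.76 to 3.06), against 1.59% of all common regions. It was found in 0.598% of p30 DMSO-alone (0.499 to 0.717) and 0.414% of EV DMSO-alone regions (0.313 to 0.547), so the share in p42 DMSO-alone regions was 4.85 and 7.01 times as high. In regions alone to p42 Tm the share was 2.10% (1.90 to 2.33), and in regions with a peak in both p42 lists and no other it was 6.04% (5.68 to 6.42). The p42 DMSO-alone regions thus stood between the regions shared by both p42 lists and those of the p30 and EV lists. These intervals reflect counting error alone, and neighbouring regions are not independent.

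Flanks of the same regions give the level of these words away from the summit. At 200 to 300 bp on either side, 0.989% of p42 DMSO-alone regions had the CEBP word, so the share at the summit was 2.93 times that of the flanks. The same ratio was 5.46 in regions of both p42 lists, 0.76 in p30 DMSO-alone and 0.60 in EV DMSO-alone regions. Where a CEBP word was present within 100 bp, its median distance from the summit was 38.5 bp in p42 DMSO-alone regions, 38.5 bp in regions of both p42 lists and 55.5 bp in the 49 EV DMSO-alone regions that had one. In the bin of 20 bp centred 20 bp before the summit there were 4.50 CEBP matches per 1000 p42 DMSO-alone regions, against 1.21 in the bin at 280 bp before it.

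**Figure D2:**
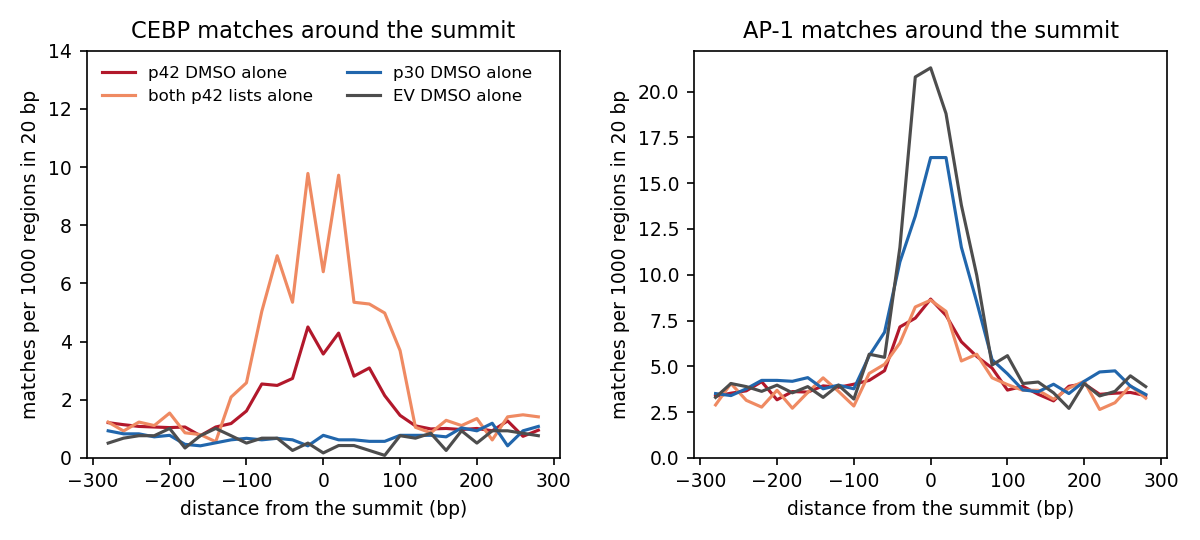
Lines give the number of word matches per 1000 regions in bins of 20 bp (vertical axis) by distance from the summit in bp (horizontal axis), for CEBP on the left and AP-1 on the right, in regions alone to p42 DMSO, p30 DMSO or EV DMSO and in regions of both p42 lists alone. CEBP matches gather at the summit in p42 DMSO-alone regions (4.50 per 1000 at 20 bp before it) and not in EV DMSO-alone regions (0.507), whereas AP-1 matches at the summit number 8.67 against 21.3 per 1000.

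The form of the CEBP word was mostly that without a CpG, in these regions as in all other sets. TTGCACAA or its reverse was near 1289 summits of p42 DMSO-alone regions (2.73%) and the full palindrome TTGCGCAA near 84 (0.178%). The palindrome was found in 0.0155% of p30 DMSO-alone and 0.0169% of EV DMSO-alone regions, from 3 and 2 matches. In regions of both p42 lists the palindrome was found in 0.351%, and in regions with a peak in all 6 lists in 0.0682%. TTGCACAA was found in 0.583% of p30 DMSO-alone and 0.397% of EV DMSO-alone regions. Its share was 5.7% in regions of both p42 lists and 1.11% in regions with a peak in all 6 lists.

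The composite words were also more frequent in p42 DMSO-alone regions than in p30 DMSO-alone or EV DMSO-alone regions, and less frequent than in both-p42 regions. CEBP:AP1 was near 1017 summits of p42 DMSO-alone regions, or 2.15% (2.02 to 2.28), against 0.480% in p30 DMSO-alone, 0.406% in EV DMSO-alone and 3.83% in both-p42 regions. Its share in p42 Tm-alone regions was 1.54% (1.37 to 1.73). ATF4 was near 858 summits, or 1.81% (1.70 to 1.94), against 0.511% in p30 DMSO-alone, 0.558% in EV DMSO-alone and 3.46% in both-p42 regions. After tunicamycin the ATF4 word was found in 1.99% of p42 Tm-alone regions (1.80 to 2.21), an interval that overlaps that of the p42 DMSO-alone regions. In p30 Tm-alone and EV Tm-alone regions the ATF4 share was 1.11% (0.936 to 1.32) and 0.787% (0.655 to 0.946). PAR bZIP factors and NFIL3 are bZIP proteins whose words share the outer TT and AA with the CEBP words and differ between them. Their word was near 2.08% of p42 DMSO-alone summits and 0.763% of p30 DMSO-alone summits.

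These 4 motifs, the PAR bZIP and NFIL3 word included, are called C/EBP-type here. Any of them was within 100 bp of the summit in 4119 p42 DMSO-alone regions, or 8.71% (8.46 to 8.97). The PAR bZIP and NFIL3 share at these summits was 1.55 times that of the flanks, against 2.93 for CEBP, 2.44 for CEBP:AP1 and 2.66 for ATF4. The share was 15.9% in both-p42 regions, 7.04% in p42 Tm-alone, 2.33% in p30 DMSO-alone and 2.05% in EV DMSO-alone regions. The other p42 DMSO-alone regions held no such word in this window, which says only that these exact letters were not there. In 225 regions (0.476%) there were 2 or more matches, against 8 (0.0413%) of the p30 DMSO-alone and 0.347% of the p42 Tm-alone regions. Overlapping matches were each counted, so 2 matches can lie in a single stretch, as at IL12B.

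AP-1 words ran the other way. TGAGTCA was near 2764 summits of p42 DMSO-alone regions, or 5.84% (5.64 to 6.06), close to the 5.75% (5.40 to 6.12) of both-p42 regions. In p42 Tm-alone regions the AP-1 share was similar, at 6.3% (5.95 to 6.67). It was near 9.22% of p30 DMSO-alone summits (8.82 to 9.63), 11% of EV DMSO-alone summits (10.5 to 11.6) and 10.0% of summits of regions with a peak in all 6 lists. The AP-1 share at the summit of p42 DMSO-alone regions was still 1.79 times that of their flanks (3.26%). RUNX words (TGTGGTTT), which RUNX1 and its relatives bind in blood cells, had the same order, with 2.82% in p42 DMSO-alone, 4.14% in p30 DMSO-alone and 5.66% in EV DMSO-alone regions. The RUNX share was 2.51% in p42 Tm-alone regions. PU.1 words (GAGGAAGT), the site of the myeloid factor encoded by SPI1, were near 5.55% of p42 DMSO-alone summits, 4.45 times the share in the flanks, against 4.05% and 4.23% in p30 DMSO-alone and EV DMSO-alone regions. The PU.1 share was higher in p42 Tm-alone regions (6.51%), in both-p42 regions (6.77%), in regions with a peak in all 6 lists (8.14%) and over all common regions (6.86%). AP-1 and a C/EBP-type word were found together in 212 p42 DMSO-alone regions (0.448%), 0.763% of both-p42 regions and 0.347% of p42 Tm-alone regions. The share was 0.196% in p30 DMSO-alone, 0.323% in EV Tm-alone and 0.417% in regions with a peak in all 6 lists. Whether the 2 words meet more often than their separate shares imply was not tested.

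Because weak regions dominate, the same shares were set side by side at equal numbers of tags. Tags were those of each region's own list (p42 DMSO for both-p42 regions) and were not scaled for depth, which differed between lists. Among regions with 4 tags at the summit, the CEBP word was found in 1.98% of p42 DMSO-alone (1.62 to 2.43), 0.861% of p30 DMSO-alone (0.564 to 1.31) and 0.463% of EV DMSO-alone regions (0.224 to 0.953). At 6 tags the shares were 2.87%, 0.566% and 0.331%, and at 11 to 14 tags 3.8% (3.09 to 4.66), 0.290% (0.0796 to 1.05) and 0.260% (0.046 to 1.46). The last 2 values rest on 2 of 689 and 1 of 384 regions. The share in p42 DMSO-alone regions was thus above that in the p30 and EV DMSO sets at each of these levels, the weakest included. At 15 tags or more it was 2.99% (2.05 to 4.34) over 870 regions, against 9.17% in both-p42 regions. In p42 Tm-alone regions it ranged from 1.56 to 2.37% over the 8 levels of tags.

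**Figure D3:**
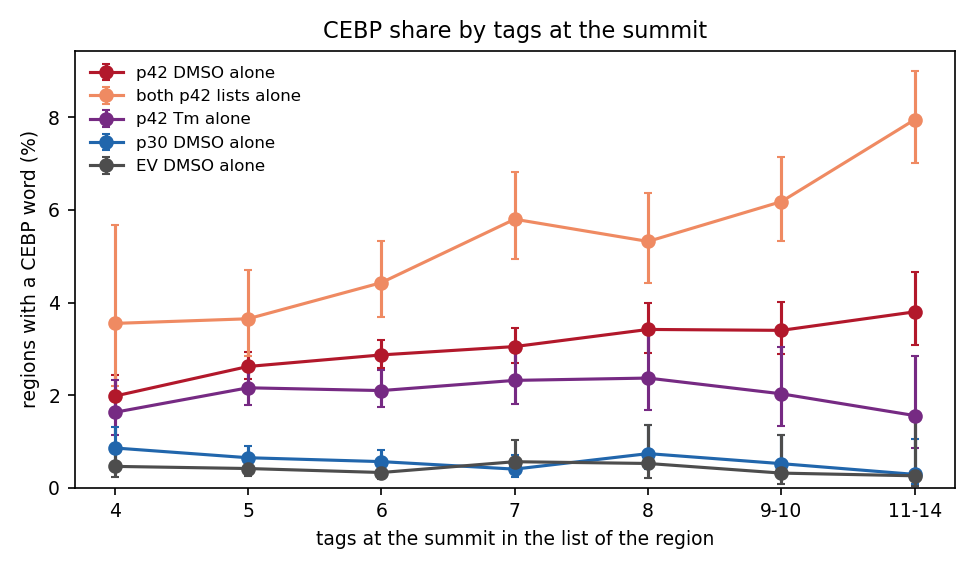
Points give the share of regions with a CEBP word within 100 bp of the summit (vertical axis, percent) by the number of tags at the summit (horizontal axis), for 5 sets, with 95% Wilson intervals. Tags are not scaled for the depth of each list. The p42 DMSO-alone regions go from 1.98% at 4 tags to 3.8% at 11 to 14 tags and the p30 DMSO-alone regions from 0.861 to 0.290%.

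Read from the p42 DMSO list, the share of regions that were alone fell with the number of tags. Of the p42 DMSO regions with 4 tags at the summit, 64.8% had no peak in another list. This share was 44.6% at 6 tags, 14.6% at 9 to 10 tags and 1.01% at 15 tags or more. At each level, regions with a CEBP word were alone more often than those without, with 75% (66.6 to 81.9) against 64.6% at 4 tags, 61.4% (57.3 to 65.4) against 44.2% at 6 tags and 24.4% (21.0 to 28.1) against 14.3% at 9 to 10 tags. They were also more often shared with p42 Tm and no other list, with 19.5% against 8.93% at 6 tags and 30.6% against 9.63% at 9 to 10 tags. Regions with an AP-1 word were alone less often, with 32.2% (30.3 to 34.1) against 45.7% without the word at 6 tags. Of all 4768 p42 DMSO regions with a CEBP word, 28.8% were alone in that list and 20.6% were in both p42 lists alone, whereas of the 21258 with an AP-1 word 13.0% and 4.40% were.

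For the CEBP word, the order of the p42 DMSO-alone, p30 DMSO-alone and EV DMSO-alone sets was the same within classes of base composition. The median GC content within 100 bp of the summit was 44.8% in p42 DMSO-alone regions and 43.8% in both-p42 regions. Below 40% GC the CEBP share was 4.10% in p42 DMSO-alone, 0.893% in p30 DMSO-alone and 0.495% in EV DMSO-alone regions, and at 55% GC or more it was 1.53%, 0.209% and 0.0970%. With tags and background scaled to the depth of EV DMSO, 41978 p42 DMSO-alone regions still passed the threshold and 5321 did not. The CEBP word was in 3.02% of the former and 1.99% of the latter. Distance from other peaks moved the share too, with 3.06% (2.89 to 3.24) in regions over 500 bp from any peak of another list and 2.31% (2.03 to 2.63) in the closer ones.

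The p42 DMSO-alone regions lay mostly away from transcription starts. Of these regions 4308 (9.11%, 8.85 to 9.37) had the summit within 1000 bp of an annotated start, 1767 (3.74%) were in other exonic sequence, 24827 (52.5%) in introns and 16397 (34.7%) outside genes, and the median distance to a start was 12229 bp. Regions alone to the other lists had 9.82 to 11.4% within 1000 bp of a start and both-p42 regions 9.28%, whereas regions with a peak in all 6 lists had 23.1%. The CEBP word was in 2.39% (1.98 to 2.89) of the p42 DMSO-alone regions near a start and in 2.95% (2.80 to 3.12) of those farther away. Of the p42 DMSO-alone regions, 1122 (2.37%, 2.24 to 2.51) were within 1 kb of a region shared by both p42 lists alone, against 1.57% (1.41 to 1.76) of p30 DMSO-alone and 2.78% (2.55 to 3.04) of p42 Tm-alone regions. Within 10 kb the shares were close to each other, with 13.6% of p42 DMSO-alone, 12.8% of p30 DMSO-alone and 13.8% of p42 Tm-alone regions. Of the regions with a peak in all 6 lists, 14% were within 10 kb of such a region.

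Promoters of 2496 of 19962 protein-coding genes (12.5%) had a p42 DMSO-alone region within 1000 bp of a start, which is the background for the gene lists that follow. None of 14 AP-1 genes (such as FOS, JUN and BATF) and none of 6 C/EBP genes had one, and all 20 had another p42 DMSO region at the promoter. Of 20 stress response genes (unfolded protein response and integrated stress response) 1 did (5%), of 20 inflammatory genes 2 (10.0%) and of 18 myeloid genes 6 (33.3%). In these lists 20, 18 and 18 genes had some p42 DMSO region at the promoter.

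The promoter regions of the stress and inflammatory genes had −log10 q values below the median of the p42 DMSO-alone regions (3.25). At SDF2L1, which encodes a chaperone partner in the endoplasmic reticulum, the region had 12 tags over a background of 3.32 and a −log10 q of 2.35, and a peak of another list lay 128 bp away. At IL12B, which encodes the p40 subunit of interleukin-12, the region on chromosome 5 from 159330462 to 159330547 had 7 tags, a fold of 3.84 and a −log10 q of 2.73. Its summit was 31 bp from an annotated start, and the CEBP:AP1 word read on both strands in the stretch printed above was 44 to 46 bp from the summit. The nearest peak of another list was 751 bp away, and the p42 Tm list came no closer than 888 bp. At IL18, the gene of an interleukin that caspase-1 matures, the region had 8 tags and a −log10 q of 2.70, 515 bp from the start.

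Myeloid genes with a p42 DMSO-alone region at a start were CSF1R, ELANE, ITGAM, FCGR1A, KLF4 and IRF8. The region at CSF1R, the receptor of the macrophage growth factor, was the strongest, with 18 tags over a background of 2.88, a −log10 q of 7.19 and 2379 bp to the nearest peak of another list. The region at IRF8, a regulator of the monocyte lineage, had 8 tags over a background of 0.63 and a −log10 q of 5.35, 63 bp from a start. The regions at ELANE (neutrophil elastase), ITGAM (CD11b), FCGR1A (CD64) and KLF4 had 7, 6, 5 and 8 tags and −log10 q values of 2.30, 2.03, 2.15 and 1.37. At CSF1R, ITGAM, KLF4 and IRF8 the start was an internal one, and the summits lay 26792, 69732, 1849 and 3636 bp downstream of the first start. None of these 6 regions had a C/EBP-type or AP-1 word within 100 bp of the summit.

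In wider windows no list had a share above that around all protein-coding genes. Within 50 kb of protein-coding genes 17.9% of p42 DMSO regions were p42 DMSO-alone (17.7 to 18.1). The share was 10.8% (7.81 to 14.8) around AP-1 genes, 13.3% (7.79 to 21.9) around C/EBP genes, 13.1% (10.1 to 16.9) around stress response genes, 16.4% (12.8 to 20.7) around inflammatory genes and 15.9% (12.5 to 20) around myeloid genes. A C/EBP-type word was near the summit in 8.62% of the p42 DMSO-alone regions around all protein-coding genes (8.33 to 8.93). It was near 9 of 55 summits around inflammatory genes (16.4%, 8.86 to 28.3), 4 of 58 around myeloid genes (6.90%, 2.71 to 16.4) and 1 of 49 around stress response genes (2.04%, 0.361 to 10.7). Around AP-1 genes it was near 4 of 33 summits (12.1%, 4.82 to 27.3) and around C/EBP genes near 2 of 12 (16.7%, 4.70 to 44.8). These counts are small, the lists were chosen with earlier results of these data known, and no difference was tested.

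Single genes with the most p42 DMSO-alone regions were long ones. GPC5, a glypican gene of 1475 kb on chromosome 13, held 60 of them among 215 p42 DMSO regions. CSMD1 (2060 kb) and GPC6 (1181 kb) held 39 each, and DAB1 (1552 kb) and TBC1D5 (1288 kb) held 37 each. In all, 8870 of 19962 protein-coding genes had at least 1 p42 DMSO-alone region inside, and 315 had 10 or more. These counts were not adjusted for gene length or for the uneven spread over chromosomes given below.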

How the data were processed

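ATAC-seq peak lists were used, one for each of 6 conditions, called by the authors on the pooled pair of libraries. Per the labels, reads were trimmed with Trim Galore 0.6.6, aligned to hg38 with Bowtie2 2.4.4 and freed of duplicates with Picard, and peaks were called with MACS2. A shift of reads for the Tn5 cut is not given in the sources used here and would move summits by a few bp. The deposited fold enrichment is a ratio of pileup to local background, with the same constant added to both. It and the deposited −log10 p and −log10 q are relative to the same list and not normalized between conditions. The summit is deposited as an offset in bp from the peak start.

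Fold and p were solved for the pileup (tags) and background, which came out whole for 100% of peaks (tolerance 0.001 on −log10 p) and was tested on simulated data. Depth is the lowest background times 2700000000 bp over the shortest peak width. Peaks were merged on chromosomes 1 to 22 and X with Python 3.11.15, numpy 2.4.6, pandas 2.3.3, scipy 1.17.1 and bedtools 2.31.1, and of the p42 DMSO peaks 0.312% on other sequences were left out. Words were exact matches on hg38 within 100 bp of the summit. Genes came from GENCODE release 44. Shares carry 95% Wilson intervals. The regions, motifs and gene lists were chosen with earlier results of these data known. Named regions were the 5 with the highest −log10 q, the highest with each of 4 motifs, those at promoters of listed genes, and the 5 genes with most regions. Of these, 1 region is not reported here, and the next with the CEBP motif took its place. Alternatives were stricter thresholds, a depth-scaled threshold, equal list lengths, other overlaps, autosomes only, and other motif and promoter windows. Reads per library and tracks were not used here.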

Additional observations from a re-analysis of the deposited data

How the results depend on the processing

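The number of p42 DMSO-alone regions stayed within 1.5 times of 47299 with the depth-scaled threshold, with peaks of other lists within 500 bp counted as shared (37554), with sharing only where 50% of the peak is covered, and on autosomes only. It was 28137 at a −log10 q of at least 3, 6291 at 5 and 19790 with equal list lengths. The CEBP share was 1.68% within 50 bp and 3.94% within 200 bp of the summit, 3.18% at a −log10 q of at least 3 and 3.59% with equal list lengths. In the same order, the CEBP:AP1 share was 1.3, 2.93, 2.43 and 2.69%, and the ATF4 share 1.10, 2.58, 1.97 and 2.13%. The AP-1 share was 3.53% within 50 bp, 9.22% within 200 bp and 5.63% at a −log10 q of at least 3. Without other peaks within 500 bp, CEBP:AP1 was 2.33% and AP-1 6.12%. The share near a start was 5.41% within 500 bp and 17.4% within 2500 bp, and the genes with a region at the promoter numbered 1508 and 4237, or 1525 at a −log10 q of at least 3. Window widths and thresholds change these values by their own construction. No paired analysis was possible because each list pools both libraries of a condition. At 4 to 7 tags a summit sits near the threshold, so a missing peak in another list does not show that the region is closed there.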

Other observations

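The p42 DMSO-alone regions were spread unevenly over chromosomes, and so were the regions alone to the other lists. Chromosome 8 held 7.19% of p42 DMSO-alone regions and 7.50 to 8.27% of those alone to the other lists, against 5.79% of regions with a peak in all 6 lists. Chromosome 13 held 6.62%, 7.51 to 8.91% and 4.32%. Of the p42 DMSO regions on chromosome 13, 23.6% were alone, against 12.8% on chromosome 19, and among regions with 4 to 6 tags these shares were 52.8% and 51.8%.

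Words of the other factors were read in the same windows. IRF words (GAAANNGAA) were near 7.52% of p42 DMSO-alone summits and in 7.63% of their flanks. GATA words (AGATAAG) were near 2.73% of summits and in 2.83% of flanks, against 3.90% and 3.02% in EV DMSO-alone regions. CTCF words (CCACNAGGG) were near 1.14% of p42 DMSO-alone summits, 1.65% of p30 DMSO-alone summits and 3.02% of summits of regions with a peak in all 6 lists. The CRE word (TGACGTCA) was near 72 p42 DMSO-alone summits, or 0.152%, against 0.217% of all common regions. ETS words (CCGGAAGT) were near 0.125% of p42 DMSO-alone summits and SP/KLF words (GGGCGGGG) near 1.07%, against 1.05% and 6.05% in regions with a peak in all 6 lists, and against 0.160% and 1.05% in p30 DMSO-alone regions. NF-kB words (GGGANTTCC) were near 0.653% of p42 DMSO-alone summits and 0.846% over all common regions.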
